A study of Homo sapiens with 7 samples.

Results

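The sites described here are the 971 genomic positions listed with transposon insertions in both libraries of an SP1 fusion. The fusion joins the transcription factor SP1 to the piggyBac transposase, and no SP1 ChIP-seq peak lay within 1 kb of these sites. They were chosen as identical positions in SP1_PB replicates 1 and 2 whose distance to the nearest edge of every peak exceeded 1 kb, out of 30410 distinct positions in these libraries and 204874 in all 5 insertion libraries of the study. The study used the established human colon adenocarcinoma line HCT116, mapped insertions of the fusion in 2 libraries (SP1_PB) and of the wild-type enzyme in 3 (WT_PB), and lists SP1 ChIP-seq peaks from 1 sample of the same line. Every insertion library came from cells selected with G418 for an integrated transposon, through inverse PCR after digestion of separate aliquots with 3 restriction enzymes. Whether replicates were separate cultures is not given in the labels, so the spread between libraries, and any p-value over them, may be technical. Nor do they give the promoter that drove the transposase or the time of harvest.

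PiggyBac is a cut-and-paste DNA transposon that inserts almost only at the tetranucleotide TTAA. Fused to a DNA-binding protein, its transposase leaves transposons, called calling cards, near the places the protein visits. SP1 is a zinc finger factor that binds GC-rich sequence, mostly in promoters. A position hit independently in separate libraries is one way to look for favoured sites, and the wild-type transposase shows which sites the enzyme favours without SP1. Whether each identical position here arose from separate insertions was not tested, and the labels do not say if replicates were separate cultures. No hg18 genome or annotation was used here, so the sequence at these sites and the genes around them are not given.

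Depth was 904125 and 1004964 reads on 18856 and 14467 positions in SP1_PB replicates 1 and 2, and 1030567 to 2439456 reads on 57419 to 67423 positions in the WT_PB libraries. The peak list held 27015 peaks with a median width of 825 bp. Off-peak positions made up 58.7% and 58.2% of the SP1_PB libraries and 91.9% to 92.3% of the WT_PB libraries. Reads from PCR carry no molecular identifiers here and do not count molecules, and the intervals given cover counting error only and take positions as independent.

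Off-peak sites were the minority of the positions that recurred. Of 2913 positions present in both SP1_PB libraries, 971 (33.3%) lay more than 1 kb from every peak and 1942 lay closer, whereas 63.8% of the positions present in 1 SP1_PB library only lay off peak. The 971 sites were 8.78% of the off-peak positions of SP1_PB replicate 1 and 11.5% of those of replicate 2 (95% Wilson interval 10.9 to 12.2). They carried 7.34% of all reads of replicate 1 and 9.17% of all reads of replicate 2. Peaks and both libraries chose the sites, so these shares describe the choice and no test was made of them.

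Many of these sites came in neighbouring pairs 1 bp apart. Of the 971 sites 552 (56.8%) had another SP1_PB position exactly 1 bp away in either library, against 19.4% of the 17548 off-peak positions found in 1 SP1_PB library only. In the WT_PB libraries 7.17%, 9.40% and 9.46% of off-peak positions had such a neighbour in their own library. SP1_PB neighbours were sought in both libraries together, and the shared sites were chosen for presence in both. These shares are therefore not directly comparable and were not tested. Copies of TTAA cannot start 1 bp apart, and the deposited readme does not say how such neighbours arose. Counting members within 3 bp of each other as 1 left 853 sites. Merging positions within 3 bp in each library first, and then asking for identical positions, left 676. Accepting a replicate 1 position within 3 bp gave 1438 off-peak positions of replicate 2.

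The shared off-peak sites lay nearer to peaks than other off-peak insertions of the fusion. Their median distance to the nearest peak was 16464 bp, with quartiles at 4228 and 56245 bp and a range from 1008 bp to 6863804 bp. For off-peak positions of 1 SP1_PB library only, the median was 28698 bp in replicate 1 and 26984 bp in replicate 2. For off-peak positions of the WT_PB libraries it was 66413, 68320 and 73786 bp. Of the shared sites 28.0% lay within 5 kb of a peak, against 18.3% and 19.2% of the positions of replicate 1 only and replicate 2 only, and 7.15% to 8.02% of WT_PB positions. At the other end 143 sites (14.7%) lay more than 100 kb from any peak, against 23.4% of the positions in 1 SP1_PB library and 40.4% to 43.0% of WT_PB positions. The rule used distance only as a minimum, but it came from the same peak list, and these values are a description.

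**Figure D1:**
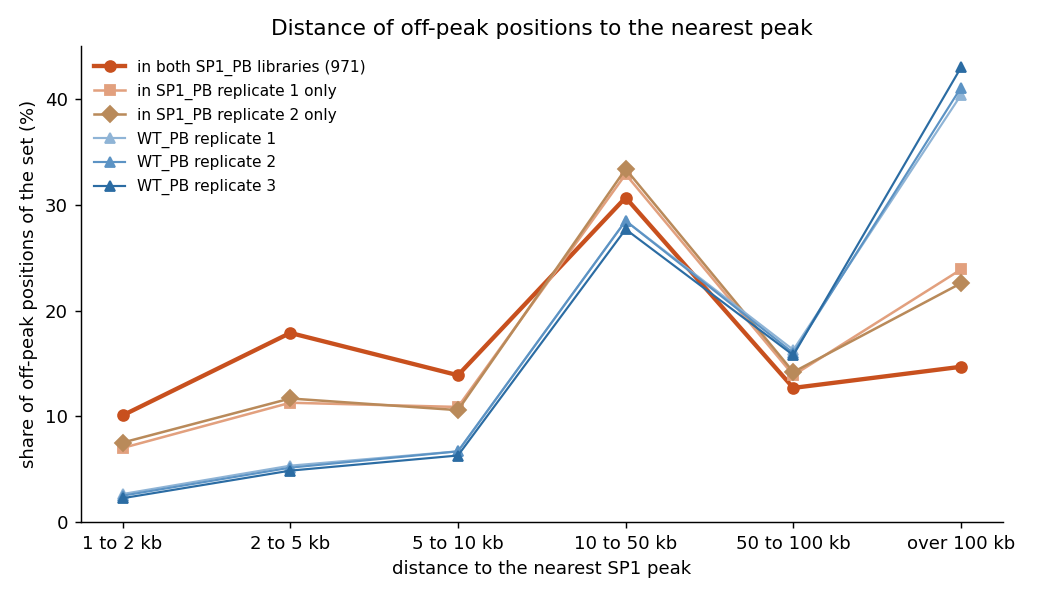
Share of off-peak positions (vertical axis, percent of each set) by distance range to the nearest SP1 peak (horizontal axis), for the 971 shared sites, positions of 1 SP1_PB library only, and each WT_PB library. The shared sites stand highest in the ranges up to 10 kb and lowest over 100 kb, where they reach 14.7% against 40.4% to 43.0% in WT_PB.

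The boundary at 1 kb cut through a thinning series of positions. The closest sites outside it were at chromosome 1, 148089807, at 1008 bp with 2 and 47 reads in SP1_PB replicates 1 and 2, and at chromosome 19, 8483045, at 1014 bp with 378 and 602 reads. The closest inside it were the adjacent positions 925365 and 925364 on chromosome 1, at 992 and 993 bp, with 79 and 241 reads and with 73 and 11 reads. Between 0.5 and 1 kb from a peak lay 126 shared positions, and between 1 and 1.5 kb 53.

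Sharing itself was lower far from peaks and stood above that of the WT_PB pairs in each of the 8 distance ranges. Of replicate 2 positions inside peaks 41.3% were also in replicate 1, and of those up to 1 kb away 21.5%. Beyond 1 kb the share was 14.9% at 1 to 2 kb, 16.7% at 2 to 5 kb and 14.6% at 5 to 10 kb, with intervals that overlapped. It was 10.7% at 10 to 50 kb, 10.4% at 50 to 100 kb and 7.83% (6.68 to 9.15) over 100 kb. In the 3 pairs of WT_PB libraries the share over 100 kb was 3.29%, 1.88% and 1.98%, and at 1 to 2 kb 4.99%, 3.42% and 3.92%. Sharing in the WT_PB pairs was thus also highest in and beside SP1 peaks, at 12.3% to 13.0% inside them.

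**Figure D2:**
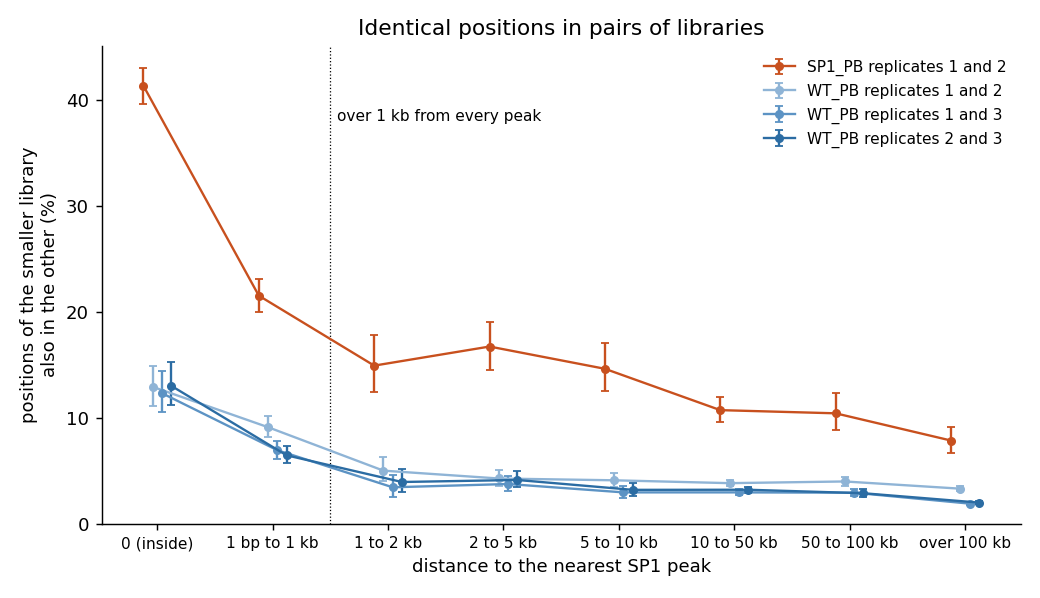
Percent of the positions of the smaller library that are at the identical position in the other library (vertical axis), by distance to the nearest SP1 peak (horizontal axis), for the SP1_PB pair and the 3 WT_PB pairs, with 95% Wilson intervals. The SP1_PB pair falls from 41.3% inside peaks to 7.83% over 100 kb and stays above the WT_PB pairs throughout.

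Taken over all off-peak positions, the SP1_PB pair shared 11.5% of the smaller library's positions and the WT_PB pairs 2.53% to 3.70%. Since WT_PB libraries are several times larger, the number shared was also divided by the product of the numbers of off-peak positions in the libraries. This gave 10.4 shared positions per 1000000 pairs of positions for SP1_PB and 0.430 to 0.595 for the WT_PB pairs. The 6 pairs across groups stood between, at 0.737 to 1.05. Within 1 kb of peaks the same quantity was 41.3 for SP1_PB, 15.4 to 19.4 for the WT_PB pairs and 10.7 to 12.7 across groups. This quantity also depends on how much of the genome a zone covers, which was not corrected for. Values near peaks and off peak are therefore not directly comparable. The pairs share libraries and the sites were chosen on the SP1_PB pair, so no test was made. No expectation by chance was computed, since it needs the TTAA sites of hg18.

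Reads at the shared sites were higher than at other off-peak positions and varied widely between the libraries. Presence in both libraries depends on reads, so the rule favours sites with more reads, and no test was made. In SP1_PB replicate 1 the sites had a median of 12 reads (quartiles 3 and 58.5, highest 1289), against 4 at off-peak positions of that library only. In replicate 2 the median was 28 reads (quartiles 5 and 93.5, highest 2680), against 9. Of the sites 382 (39.3%) had at least 10 reads in both libraries and 68 at least 100 in both. At 37 sites 1 library had a single read and the other at least 100, and at 36 both had a single read. Reads differed by more than 10 times between the libraries at 321 sites (33.1%). Spearman's rho of the reads over the 971 sites was 0.254, a description over sites that share libraries and PCR pools. The read ranges of the libraries overlapped, and many sites were high in 1 library and low in the other.

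**Figure D3:**
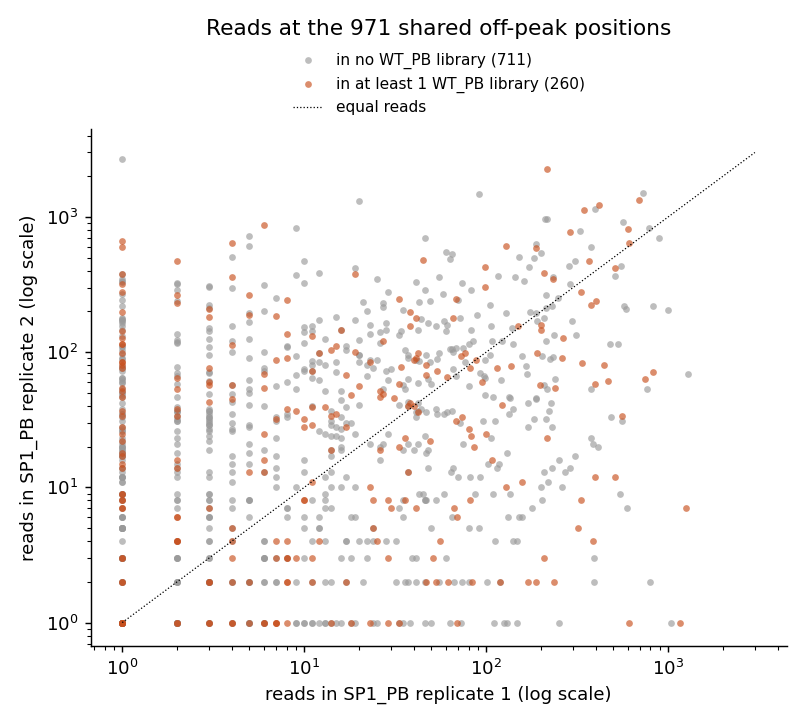
Reads at each of the 971 sites in SP1_PB replicate 1 (horizontal axis, log scale) and replicate 2 (vertical axis, log scale), coloured by presence in WT_PB libraries, with equal reads as a dotted line. Points spread over the whole plane (rho 0.254), and the 260 sites in a WT_PB library lie among the 711 that are in none.

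Positions with more reads were more often in both libraries. Of off-peak positions with 1 read in replicate 2, 6.17% were also in replicate 1, and of those with 100 or more reads 18.8% (16.7 to 21.1). Starting from replicate 1 the shares were 5.88% and 14.5%. A site listed in several lines of a file was more common among the shared ones. In replicate 1 this held for 375 of the 971 (38.6%), against 908 of the 10093 off-peak positions of that library only, and in replicate 2 for 277 (28.5%) against 4.28%. What separates such lines is not stated in the deposited readme.

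The sites with the strongest reads in both libraries are named here by their lower read count of the 2. The site at chromosome 4, 25476287, had 781 and 826 reads, lay 1669 bp from a peak and was in no WT_PB library. The site at chromosome 3, 9766846, had 725 and 1515 reads and lay 7184 bp from the nearest of 8 peaks within 50 kb. At chromosome 19, 50688455, there were 892 and 695 reads, 2821 bp from the nearest of 12 such peaks. These sites were high in both fusion libraries and listed in no wild-type library. Absence there was the usual case, since 11.1% of all 18519 off-peak SP1_PB positions were at an identical position in a WT_PB library. The site on chromosome 19 had 2 other WT_PB positions within 1 kb, and those on chromosomes 4 and 3 had none.

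The other pair among the top 5 also occurred in WT_PB libraries. The site at chromosome 4, 37997110, had 695 and 1328 SP1_PB reads and 400, 6 and 13 reads in WT_PB replicates 1, 2 and 3, and its nearest peak was 340991 bp away. At this exact coordinate it was thus high in both fusion libraries and in 1 of the wild-type libraries. The shared site 1 bp away, at 37997111, had 66 and 179 SP1_PB reads and 90 reads in WT_PB replicate 3. The site at chromosome 15, 62915007, had 613 and 645 SP1_PB reads, 14 in WT_PB replicate 1 and none in the other WT_PB libraries, and lay 5340 bp from a peak.

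Presence in WT_PB libraries was not used to choose the sites. Of the 971 sites, 260 (26.8%) were at an identical position in at least 1 WT_PB library, against 11.1% of all 18519 off-peak SP1_PB positions. In 192 cases this was 1 library, in 55 cases 2 and in 13 cases all 3 (1.34%, against 0.308% of all off-peak SP1_PB positions). The remaining 711 (73.2%) were listed in none, against 89.8% of off-peak positions of 1 SP1_PB library only. By identical position, most shared sites were thus listed only in the fusion libraries, but less often than positions of 1 SP1_PB library. Accepting a WT_PB position within 3 bp raised the mean share of sites found per WT_PB library from 11.7% to 18.3%. For positions of 1 SP1_PB library that mean rose from 4.17% to 6.81%. The share listed in no WT_PB library was not computed with this tolerance.

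In each wild-type library the shared off-peak sites were found more often than off-peak positions of 1 SP1_PB library. WT_PB replicate 1 held 127 of the sites (13.1%, interval 11.1 to 15.3), replicate 2 held 117 (12.0%, 10.1 to 14.2) and replicate 3 held 97 (9.99%, 8.26 to 12.0). Off-peak positions of 1 SP1_PB library were found there at 4.28%, 4.87% and 3.37%. The means were 11.7% ± 1.57 and 4.17% ± 0.755 (SD, n = 3 libraries), a ratio of 2.81, and the sites stood higher in 3 of 3 libraries. The exact paired permutation test gave p = 0.25, the smallest that 3 libraries allow, so it cannot pass 0.05. Against the shared positions within 1 kb of a peak, at 9.18% ± 0.732, the ratio was 1.27, also higher in 3 of 3 libraries (exact paired permutation p = 0.25), but in WT_PB replicates 2 and 3 the intervals of these sets overlapped, and in replicate 1 they met at 11.1% without overlapping.

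The excess was present at every level of reads examined. With positions grouped by their SP1_PB reads into 5 ranges, shared sites were found in a WT_PB library at 22.9% to 30.4% over the ranges of replicate 1, and positions of that library only at 8.96% to 15.0%. From replicate 2 the shares were 21.9% to 30.7% and 5.84% to 10.7%. The ranges do not overlap in either library. At the sites found there, the WT_PB libraries had medians of 7, 8 and 13 reads in replicates 1, 2 and 3 and highest values of 644, 632 and 169. At the off-peak positions of 1 SP1_PB library found there the medians were 5, 7 and 7, and over all off-peak positions of these libraries 3, 4 and 3.

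The share of sites found in WT_PB was higher beyond 10 kb from a peak than within. At 1 to 2 kb from a peak 21.4% of the sites were in a WT_PB library, at 2 to 5 kb 21.8% and at 5 to 10 kb 17.0%. At 10 to 50 kb the share was 29.9%, at 50 to 100 kb 34.1% and over 100 kb 32.9%. Off-peak positions of 1 SP1_PB library showed no such rise, with 9.37% to 11.0% in these 6 ranges. The 260 sites in a WT_PB library had a median distance of 23856 bp and the other 711 one of 13775 bp. The difference in trend was not tested.

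Other wild-type positions also lay close to the sites. With the identical position left out, 523 of the 971 sites (53.9%) had at least 1 WT_PB position within 1 kb, against 37.5% of all off-peak SP1_PB positions. The mean number per site was 0.489, 0.465 and 0.414 in WT_PB replicates 1, 2 and 3, and around off-peak positions of 1 SP1_PB library 0.291, 0.314 and 0.243. The ratio of the means was 1.62 (1.48 to 1.70 over the libraries), higher in 3 of 3 libraries with an exact paired permutation p of 0.25. With WT_PB positions within 3 bp also left out, an alternative chosen after seeing the data, the ratio was 1.46. By distance, the number over the 3 libraries was 1.17 at 1 to 2 kb from a peak, 0.674 at 5 to 10 kb and 1.99 over 100 kb, against 0.866, 0.731 and 0.905 for positions of 1 SP1_PB library. At 5 to 10 kb the shared sites therefore did not stand above the others.

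**Figure D4:**
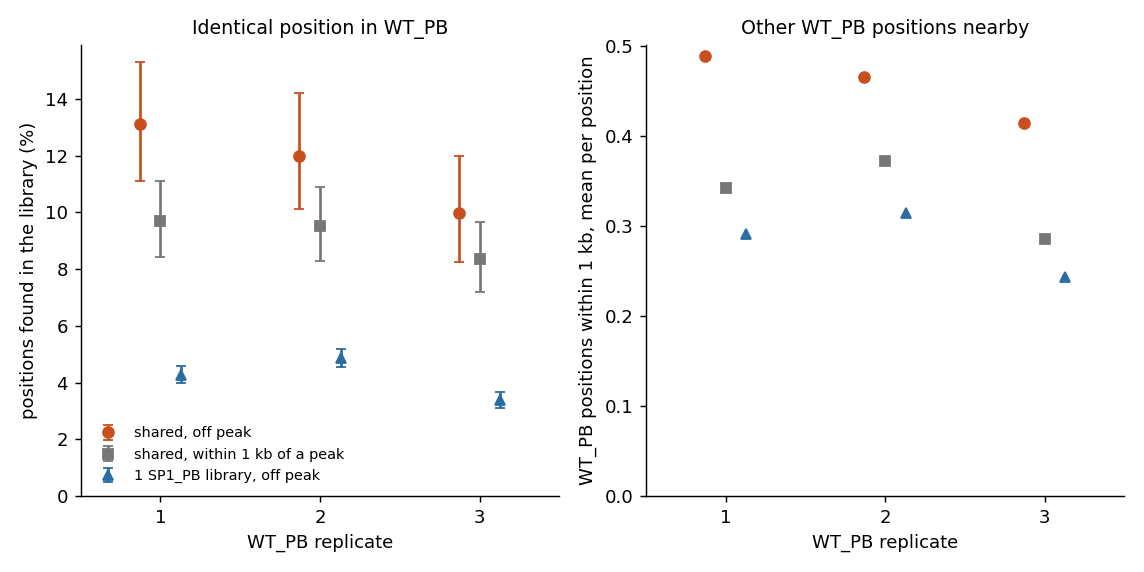
Left, percent of positions found at the identical position in each WT_PB replicate, with 95% Wilson intervals; right, mean number of other WT_PB positions within 1 kb. In all 3 libraries the shared off-peak sites (circles) stand above the off-peak positions of 1 SP1_PB library (triangles), at 9.99% to 13.1% against 3.37% to 4.87%.

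The 13 sites in all 5 libraries lay on 10 chromosomes, and at 7 of them some WT_PB library had only 1 or 2 reads. The site with the most WT_PB reads, chromosome 17, 46554444, had 105, 463 and 4 in replicates 1, 2 and 3, and 1254 and 7 in SP1_PB replicates 1 and 2. It was high in 1 fusion library and low in the other. The site at chromosome 2, 132729052, had 68, 308 and 11 WT_PB reads and 53 and 2 SP1_PB reads, 105867 bp from a peak. The site at chromosome 13, 105663876, had 1, 6 and 139 WT_PB reads and 2 and 34 SP1_PB reads, 321550 bp from a peak. That at chromosome 8, 143777965, had 10, 51 and 31 WT_PB reads and 11 and 132 SP1_PB reads. With the site at chromosome 4, 37997110, described above, these are the 5 with the most WT_PB reads, and at each the library with the most reads had over 10 times those of the library with the fewest.

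The sites formed 786 clusters when neighbours at most 1 kb apart were joined. Of these 645 held 1 site and 141 held 2 or more, with 326 sites (33.6%) among them. Most such clusters were adjacent coordinates: 116 of the 185 gaps between neighbours were 1 bp, and the median span of the 141 was 2 bp. Once sites within 3 bp were counted as 1, 55 clusters still held at least 2. Shared off-peak positions of the WT_PB pairs were less clustered, with 12.4% to 16.8% in clusters of 2 or more before any merging. This comparison counts adjacent coordinates, and no value with positions within 3 bp merged was made for the WT_PB pairs. Of the 971 sites 494 (50.9%) had another SP1_PB position 4 bp to 1 kb away, against 3518 of the 17548 off-peak positions of 1 SP1_PB library. These neighbours too were sought in both libraries together, and the difference was not tested.

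The cluster with the most sites, on chromosome 19 from 7576572 to 7576781, held 6 in 210 bp. With sites within 3 bp counted as 1 it held 4. By that count the clusters below on chromosomes 17 and 6, and that from 45601100 on chromosome 19, held as many. The 6 sites had 222 reads in SP1_PB replicate 1 and 157 in replicate 2, from 1 to 170 per site and library, and lay 2717 bp or more from the nearest of 9 peaks within 50 kb. Within 1 kb of this cluster of 6 SP1_PB replicates 1 and 2 had 2 and 4 further off-peak positions of their own, and the WT_PB libraries had none. This cluster was seen in both fusion libraries and in no wild-type library. Such absence was common, since only 37.5% of all 18519 off-peak SP1_PB positions had another WT_PB position within 1 kb.

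On chromosome 6 from 149927889 to 149928807, 4 sites had 59, 122, 121 and 169 reads in replicate 1 and 9, 120, 62 and 28 in replicate 2. The nearest peak lay 18592 bp away, the only one within 50 kb, and no WT_PB library had a position within 1 kb of the cluster. No pair of these 4 sites lay within 3 bp of each other. The group's distance to a peak was close to the median of all shared sites, 16464 bp.

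Clusters of another kind were also rich in wild-type insertions. On chromosome 17 from 46553513 to 46554444, 5 sites had 1477 and 330 SP1_PB reads, 4 of them were in a WT_PB library, and the WT_PB replicates had 4, 5 and 4 positions within 1 kb. On chromosome 9 from 32516218 to 32516313, 4 sites had 575 and 1028 reads, 3 of them were in a WT_PB library, and the WT_PB replicates had 4, 4 and 2 positions. The nearest peaks lay 43180 and 24126 bp away, each the only one within 50 kb. With sites within 3 bp counted as 1, the cluster on chromosome 17 held 4 and that on chromosome 9 held 2. These regions were hit in all 5 libraries.

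The remaining clusters of the 8 lay in regions with several peaks. On chromosome 19 from 45601100 to 45602499, 5 sites spanned 1400 bp, the largest span of any cluster, with 153 and 373 reads, 3070 bp from the nearest of 12 peaks. On chromosome 8 from 144869890 to 144870131, 5 sites had 55 and 113 reads, and on chromosome 19 from 6690164 to 6691244, 4 sites had 244 and 283 reads, 1263 bp from a peak. In each of these clusters 1 site was in a WT_PB library. On chromosome 3 from 9766824 to 9766847, 3 sites in 24 bp had 1140 and 1547 reads and no WT_PB position was near. With sites within 3 bp counted as 1, the chromosome 19 clusters from 45601100 and 6690164 held 4 and 3. The chromosome 8 cluster then held 3 and the chromosome 3 cluster 2.

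More peaks lay around the shared sites than around other off-peak positions. A median of 2 peaks (quartiles 0 and 6) overlapped the 50 kb on either side of a shared site, against 1 (0 and 3) for positions of 1 SP1_PB library and 0 (0 and 1) for WT_PB off-peak positions. No peak lay within 50 kb of 266 sites (27.4%), against 37.4% of positions of 1 SP1_PB library and 56.7% to 58.9% of WT_PB positions. Among replicate 2 positions with no peak within 50 kb, 8.85% (7.89 to 9.92) were shared. With 4 to 7 peaks 16.2% were, and with 8 or more 20.4% (17.8 to 23.3). The share of sites also in a WT_PB library went the other way, from 33.5% with no peak to 16.4% with 8 or more. Peak density and distance to the nearest peak were not separated here.

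The chromosomes with the most shared sites, 1, 19 and 17, were also those with the most peaks, at 2523, 2393 and 2169. Chromosome 1 held 112 sites (11.5%) and chromosome 19 109 (11.2%, 9.39 to 13.4), in 93 and 76 clusters. Chromosome 19 held 5.25% of off-peak positions of 1 SP1_PB library and 1.97% ± 0.0559 (SD, n = 3) of WT_PB off-peak positions. Chromosome 17 held 79 sites (8.14%), against 5.73% and 3.84% ± 0.145, and chromosome 16 49 (5.05%), against 3.68% and 2.45% ± 0.0438. Of replicate 2's off-peak positions 20.3% (17.1 to 23.9) were shared on chromosome 19, 15.8% on chromosome 16 and 15.7% on chromosome 17. The lowest shares on autosomes were 5.32% (3.43 to 8.16) on chromosome 5, with 19 sites, and 6.88% on chromosome 18, with 11. On X 17 of 254 (6.69%) were shared, and on Y 1 of 25. The intervals of chromosomes 5 and 19 did not overlap, while those of most other chromosomes overlapped with their neighbours in the order.

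**Figure D5:**
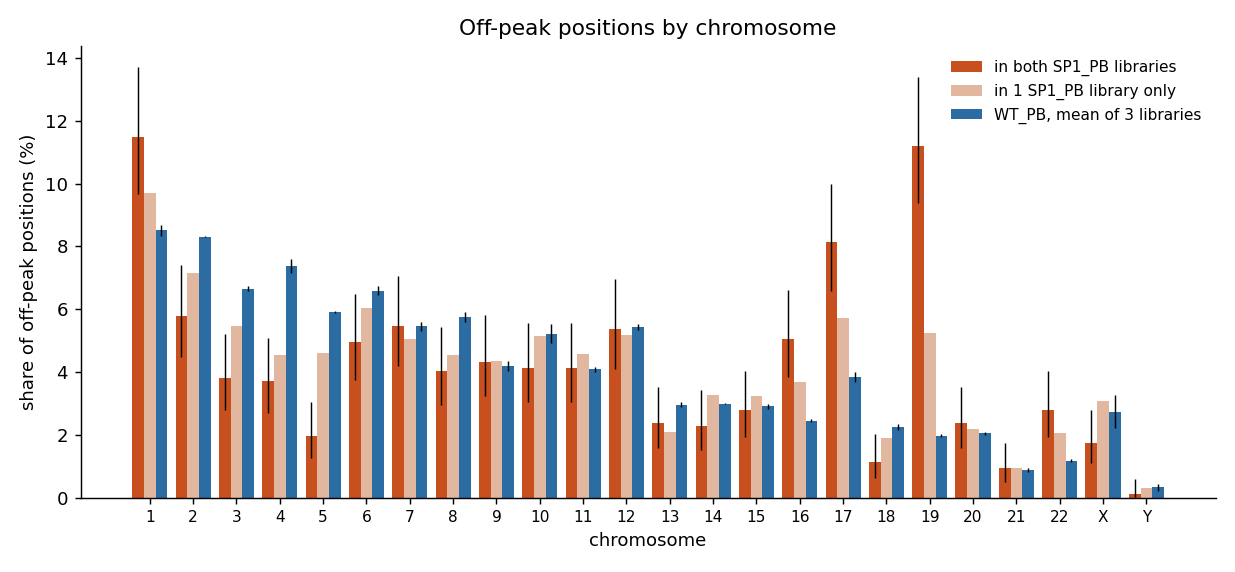
Share of off-peak positions (vertical axis, percent) on each chromosome for the 971 shared sites (95% Wilson intervals), positions of 1 SP1_PB library only, and WT_PB (mean of 3 libraries with SD). Chromosome 19 stands out, with 11.2% of the shared sites, 5.25% of the positions of 1 SP1_PB library and 1.97% of WT_PB positions.

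Some sites lay very far from any peak. The farthest, on X at 84145610, was 6863804 bp from a peak and had 91 and 5 reads in SP1_PB replicates 1 and 2. On chromosome 3 the positions 90567918 and 90466220 lay 2285635 and 2183937 bp from the same peak, the first with 3 and 2 reads and the second with 271 and 13. On chromosome 1 the position 162794480, 1039241 bp away, had 214 and 120 reads, and on X the position 63342480, 1016326 bp away, had 63 and 490. No peak lay within 500 kb of any of these 5 sites, and only that at 90567918 was in a WT_PB library, with 1 and 5 reads in replicates 1 and 2.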

How the data were processed

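The 971 positions and all lists were chosen with earlier results of these data known. Each insertion file lists where transposons were mapped and the count of Illumina reads there, which the authors aligned to hg18 with bowtie per the deposited readme (Bowtie 0.12.7 per the submitters' processing notes). The counts were deposited without normalization. Lines at 1 position were merged and their reads summed. Codes 23 and 24 were read as X and Y, since their last insertions, at 154873461 and 57765592, lay beside the last peak ends of X and Y, at 154764560 and 57766474. The peak list is MACS output with a score per peak, per the deposited readme; for the MACS version, threshold and control, nothing is given in the sources used here. The readme does not say whether positions count from 0 or 1, so distances may be off by 1 bp. The RNA values were not used here.

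Sites were processed with pandas 2.3.3, numpy 2.4.6 and scipy 1.17.1, and the functions were tested on simulated data. WT_PB values were compared with exact paired permutation tests (two-sided) over the 3 libraries, paired because both sets of positions were looked up in the same library. Shares have 95% Wilson intervals. The sites named are the 8 clusters with the most members, the 5 members with the highest lower read count, the 5 farthest from a peak, the 5 of those in all 3 WT_PB libraries with the most WT_PB reads, and the 2 shared positions on each side of 1 kb. Alternatives changed the tolerance for identical positions, the distances, the minimum reads, the peak list and the WT_PB libraries.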

Additional observations from a re-analysis of the deposited data

How the results depend on the processing

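The members need both SP1_PB libraries, so no value exists without either of them. The number of shared off-peak positions fell from 971 to 500 with at least 5 reads in each SP1_PB library and to 382 with at least 10. It stayed within 1.5 times under the other alternatives, from 676 with positions within 3 bp merged to 1438 with a tolerance of 3 bp. The ratio of presence in WT_PB libraries was above 1 in all 11 alternatives, from 2.46 against positions of SP1_PB replicate 1 only to 3.45 against those of replicate 2 only (both chosen after seeing the data), and ran from 2.68 to 3.02 without each WT_PB replicate in turn. The ratio of WT_PB positions nearby was above 1 in all 9, from 1.29 with those within 5 kb to 1.79 with 1 position per 1 kb cluster, and from 1.58 to 1.69 without each WT_PB replicate in turn. Without the replicate block, that is with the libraries unpaired, these ratios were the same, 2.81 and 1.62, with an exact permutation p of 0.1 each, the smallest possible. SP1_PB and WT_PB replicate numbers were not paired, since the sites belong to both SP1_PB libraries at once. The median number of peaks was 0 within 10 kb and 19 within 500 kb, by the construction of the window. With only the peaks at or above the median score the median distance to a peak was 25728 bp, since fewer peaks were used. With positions within 3 bp merged the SP1_PB pair shared 9.20% of the smaller library's off-peak positions and the WT_PB pairs 2.31% to 3.35%.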

Other observations

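The peak nearest to a shared off-peak site had a median score close to that of peaks nearest to other off-peak insertions. It was 431 for the shared sites, 427 for off-peak positions of 1 SP1_PB library and 415 to 425 for WT_PB off-peak positions. The shares of these peaks at or above the median score of the list were 54.3%, 55.9% and 54.4% to 55.8%. Its median width was 863 bp for the shared sites and 862 bp for positions of 1 SP1_PB library. No test was made, since peaks recur among the sites.

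Off-peak positions shared by an SP1_PB and a WT_PB library lay nearer to peaks than those shared within WT_PB. Their median distance ran from 22454 to 33428 bp over the 6 pairs, and from 47912 to 56996 bp over the 3 WT_PB pairs. Off-peak positions of SP1_PB replicate 1 only and replicate 2 only had medians of 28698 and 26984 bp, within the range of the 6 pairs.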
